A study of Homo sapiens with 12 samples.

Results

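Cholesterol synthesis and its control by the transcription factor SREBP2 were followed here through 30 listed genes, chosen by symbol for their roles in making, taking up or sensing sterols. All 30 were found among the 57500 gene identifiers of the count tables, and all 30 were among the 16402 genes that passed the filter on low counts. The list holds 19 enzymes and helper proteins of the pathway from acetyl-CoA to cholesterol, 6 genes of the SREBP machinery, and 5 genes of sterol handling or fatty acid desaturation. Read counts per gene came from poly(A)-selected RNA sequencing of THP-1 cells, a human line derived from monocytic leukaemia, that carried a lentiviral non-target shRNA. All 4 groups share this transduction, and each holds 3 libraries. The groups are 10% CO2 with LPS, 5% CO2 with LPS, 10% CO2 and 5% CO2. Cells spent 4 h in buffered medium in a chamber at the stated CO2 level, and LPS, the bacterial lipopolysaccharide that TLR4 recognises, was present at 2.5 µg/ml for the last 2 h in the groups named for it. The study asked how high CO2 at a buffered pH alters the transcriptional profile of monocytes. A transduced leukaemia line limits these groups as a model of blood monocytes, and the label does not say whether it is 1 clone.

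Cholesterol is built from acetyl-CoA through mevalonate, isoprenoid units, squalene and lanosterol. When the membrane of the endoplasmic reticulum is low in sterol, the escort protein SCAP carries SREBP2 to the Golgi apparatus, where the proteases encoded by MBTPS1 and MBTPS2 release its transcription factor domain. INSIG1 and INSIG2 hold SCAP back when sterols are plentiful. INSIG1 and most genes of the synthesis pathway are themselves known targets of SREBP2, so that they form a feedback loop. In macrophages and monocytes, sterol synthesis and the response to TLR4 ligands are known to influence each other.

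Total gene counts were 17.1 to 22.2 M per library, at which 3 counts correspond to 0.135 to 0.175 CPM (counts scaled to library size). All 12 monocyte markers, among them CD14, CD33 and LYZ, averaged at least 1 CPM over the 12 libraries, with a summed level of 1802 to 2973 CPM. Among markers of other cell types, those of T cells, epithelial cells and hepatocytes each summed to at most 1.09 CPM in any library. Fibroblast markers summed to 1.32 to 3.91 CPM, from COL1A1. Endothelial markers summed to 199 to 411 CPM, nearly all from PECAM1, which monocytes also express. The mitochondrial genome supplied 2.28 to 4.15% of counts at 10% CO2 with LPS, against 1.28 to 1.78% at 5% CO2 with LPS. Without LPS the share was 2.01 to 3.05% at 10% CO2, against 1.31 to 1.96% at 5% CO2. This share, which can reflect RNA quality, moved with every CO2 comparison below, and its part in the results was not tested. In bulk RNA, fewer cells that express a gene and less RNA per cell cannot be told apart.

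Promoter windows from RefSeq (GRCh38.p14; 250 bases before to 50 after a start site) were matched for 27 of the 30 genes. ACAT2, SQLE and FDFT1 had none. SREBP2 binds sterol regulatory elements and is known to work with the factors NF-Y and Sp1 at neighbouring sites. The windows were searched on both strands for 4 exact motifs: TCACNCCAC for the sterol regulatory element, CCAAT for the NF-Y box, GGGCGG for the GC box that Sp1 binds, and CACGTG for the E-box. Matches of different motifs may overlap, and CACGTG reads the same on both strands. At least 1 window held CCAAT in 20 of the 27 genes (74.1%), against 39.7% of all 27305 genes in the table. GGGCGG was found in 23 of the 27 (85.2%), against 48.3% of all genes. CACGTG was found in 4 (14.8%, against 8.77%). The sterol element TCACNCCAC was found in 1, SREBF2, against 1.39% of all genes. The shares over all genes include genes that did not pass the filter on low counts, which all 30 members passed. Shares over the tested genes alone were not computed, so the gaps are not read as particular to the members. These matches are exact letters in a fixed window and say nothing of binding.

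The windows of 6 genes on which the results below turn are printed here 5′ to 3′ in lower case. Capitals mark the NF-Y box (CCAAT, or ATTGG where it lies on the other strand) and, in SREBF2 alone, also the sterol element. INSIG1 is shown as the gene that was lower at 10% CO2 at both LPS levels. IDI1 and HMGCS1 are enzymes that were lower with it. SREBF2 is the gene of the factor itself, and STARD4 was called in the interaction test. MVK is an enzyme whose fall with LPS was called at 10% CO2.
INSIG1, chr7:155297628-155297927 (plus strand): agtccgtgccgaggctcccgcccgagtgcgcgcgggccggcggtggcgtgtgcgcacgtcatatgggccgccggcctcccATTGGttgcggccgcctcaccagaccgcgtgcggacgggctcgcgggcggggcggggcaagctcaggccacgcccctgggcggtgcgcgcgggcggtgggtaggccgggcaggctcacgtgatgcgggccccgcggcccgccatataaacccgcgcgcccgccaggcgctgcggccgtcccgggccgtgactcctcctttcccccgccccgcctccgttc
HMGCS1, chr5:43313363-43313662 (minus strand): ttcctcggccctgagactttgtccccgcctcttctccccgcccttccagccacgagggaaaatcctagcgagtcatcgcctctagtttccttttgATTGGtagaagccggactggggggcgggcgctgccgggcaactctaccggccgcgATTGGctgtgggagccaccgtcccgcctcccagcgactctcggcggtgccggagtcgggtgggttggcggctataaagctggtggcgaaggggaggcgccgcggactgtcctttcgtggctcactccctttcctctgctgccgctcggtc
IDI1, chr10:1049070-1049369 (minus strand): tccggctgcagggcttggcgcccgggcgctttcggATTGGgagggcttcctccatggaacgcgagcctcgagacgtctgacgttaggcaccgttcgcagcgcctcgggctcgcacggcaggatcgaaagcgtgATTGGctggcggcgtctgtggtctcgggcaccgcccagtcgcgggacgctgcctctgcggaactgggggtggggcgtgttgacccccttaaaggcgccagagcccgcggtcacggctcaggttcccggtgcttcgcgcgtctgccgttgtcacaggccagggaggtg
SREBF2, chr22:41832855-41833154 (plus strand): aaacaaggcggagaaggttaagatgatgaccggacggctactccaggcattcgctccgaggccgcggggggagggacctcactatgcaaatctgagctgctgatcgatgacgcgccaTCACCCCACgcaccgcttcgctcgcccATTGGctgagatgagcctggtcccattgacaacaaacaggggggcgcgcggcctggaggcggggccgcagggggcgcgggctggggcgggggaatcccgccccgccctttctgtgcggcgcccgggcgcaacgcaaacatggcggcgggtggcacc
STARD4, chr5:111512486-111512785 (minus strand): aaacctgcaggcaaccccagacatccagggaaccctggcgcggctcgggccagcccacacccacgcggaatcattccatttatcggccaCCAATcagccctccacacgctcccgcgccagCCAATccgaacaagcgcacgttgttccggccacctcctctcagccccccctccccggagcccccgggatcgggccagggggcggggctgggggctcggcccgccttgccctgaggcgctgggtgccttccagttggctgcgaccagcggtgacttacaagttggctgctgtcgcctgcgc
MVK, chr12:109573544-109573843 (plus strand): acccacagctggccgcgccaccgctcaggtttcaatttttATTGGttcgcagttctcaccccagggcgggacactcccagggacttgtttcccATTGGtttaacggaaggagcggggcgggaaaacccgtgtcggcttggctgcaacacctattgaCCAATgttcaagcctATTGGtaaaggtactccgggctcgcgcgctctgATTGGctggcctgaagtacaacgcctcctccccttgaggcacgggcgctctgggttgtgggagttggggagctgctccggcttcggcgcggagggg
INSIG1 has 1 NF-Y box, at position −170 from the start site, and 6 GC boxes. HMGCS1 has NF-Y boxes at −155 and −100, and IDI1 at −215 and −117. In SREBF2 the sterol element starts at −133, upstream of its single NF-Y box. STARD4 carries its pair of NF-Y boxes on the other strand relative to those of HMGCS1 and IDI1, at −161 and −130. MVK has 5 NF-Y boxes, 4 on 1 strand and 1 on the other. For genes with several windows, the one whose start site is nearest to the gene's 5′ end in the count tables is shown. By that choice the window of DHCR7 holds no NF-Y box, while another of its windows holds them at −94 and −48. No NF-Y box was found in any window of CYP51A1.

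**Figure D1:**
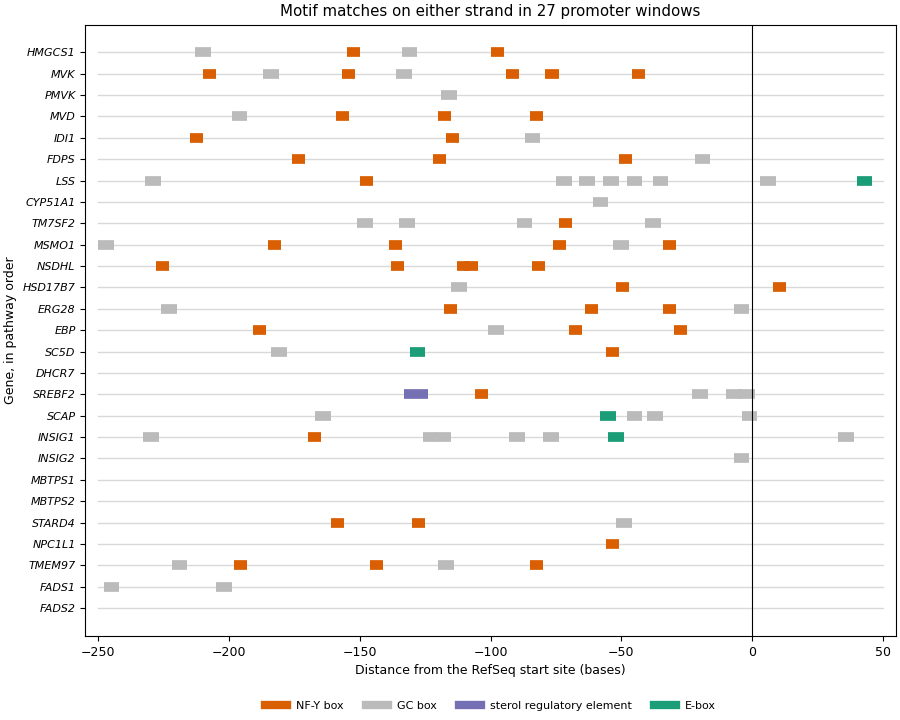
Exact motif matches on either strand in the RefSeq promoter window of 27 sterol genes, by distance in bases from the start site (x axis), with genes in pathway order down the page. Coloured blocks are the 4 motifs named in the legend. NF-Y boxes lie mostly upstream of the start site, and the single sterol element is that of SREBF2. A single window is drawn per gene, and the NF-Y boxes in other windows of DHCR7 and FADS2 are not shown.

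Levels were compared between genes as TPM, a scale that allows for gene length as well as library size. FDPS, which makes farnesyl diphosphate, was the highest of the 30 at 245 TPM over the 12 libraries (range 185 to 287), followed by SREBF2 at 230.2 TPM (range 191 to 269). The ranges of these 2 overlap. FDFT1 (squalene synthase) averaged 145 TPM, SQLE (squalene epoxidase) 112 TPM, PMVK (phosphomevalonate kinase) 109 TPM and HMGCS1 (HMG-CoA synthase) 108 TPM. INSIG1 averaged 68.0 TPM and INSIG2 7.44 TPM, with ranges that do not overlap (39.9 to 102 and 4.75 to 10.9 TPM). The widest range relative to its level belongs to STARD4, a sterol transfer protein, at 9.09 to 56.9 TPM.

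Among the enzymes, MVK (mevalonate kinase, 4.98 TPM), HSD17B7 (4.61 TPM) and CYP51A1 (7.34 TPM) were lowest. NPC1L1, the sterol uptake protein of intestine and liver, was lowest of all at 0.385 TPM (range 0.127 to 0.63). Some levels are uncertain from the annotation. CYP51A1 shares 3211 of its 4074 exon bases (78.8%) with LRRD1 on the same strand, HSD17B7 has a near-identical copy, HSD17B7P2, at 4.29 TPM, and ACAT2 shares 1850 of 4299 exon bases (43.0%) with another gene on the opposite strand, to which the tables give no symbol. The strand setting of the counting is not given in the sources used here.

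**Figure D2:**
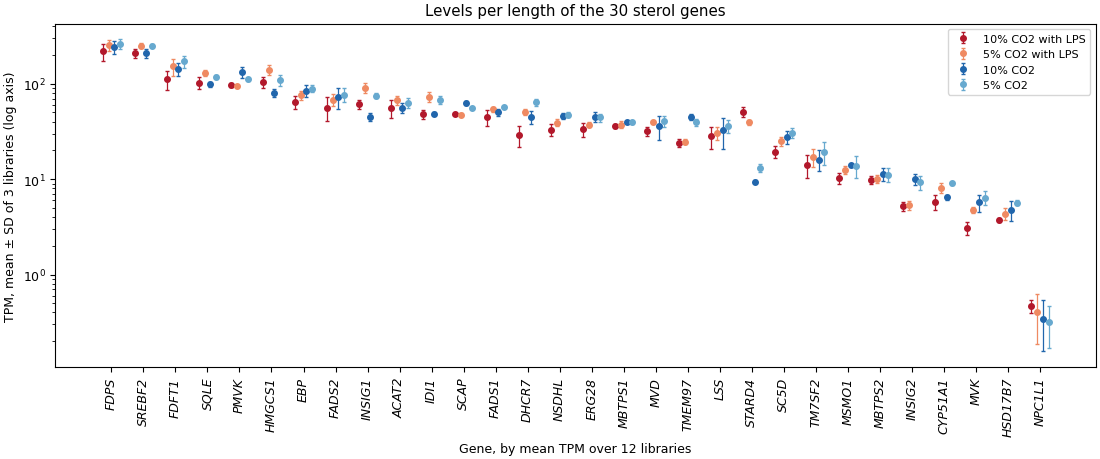
Level per length of each of the 30 genes (y axis, TPM on a log axis) in the 4 groups, with genes ordered by their mean over 12 libraries (x axis). Points are means of 3 libraries and bars are SD. FDPS and SREBF2 stand at the top and NPC1L1 at the bottom, and STARD4 is the gene whose groups lie farthest apart.

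At 10% CO2 without LPS, INSIG1 and IDI1 were the only members called, and both were lower than at 5% CO2. Calls rest on edgeR's quasi-likelihood test at an adjusted p under 0.05, with the Benjamini-Hochberg adjustment over all 16402 genes. INSIG1 fell 1.56-fold and IDI1, the isomerase that supplies the active isoprenoid unit, 1.33-fold. Of the 30 genes, 2 were called lower, against a background of 0.665% of all genes tested, and 0 were called higher, against 0.799%. At an unadjusted p under 0.05, 11 of the 30 passed in either direction, against 2862 of all 16402 genes. DESeq2 called 5 members lower and 2 higher, PMVK and SCAP. The share of all genes that DESeq2 called is not given here, so these counts are not compared with a background. Over all genes this contrast called 240 in the main fit, and 71 to 2047 under the alternatives that keep all libraries. The log2 change was below 0 for 18 of the 30 genes (60.0%, against 51.9% of all genes), with a median of −0.08 over the members and −0.01 over all genes.

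With LPS present, 10% CO2 was accompanied by lower DHCR7, IDI1 and INSIG1 and by higher STARD4. DHCR7, the reductase of a last step of the pathway, fell most among the 30, 1.60-fold. These 3 falls among 30 members stand against 4.46% of all genes called lower, and the 1 rise against 4.29% called higher. The log2 change was below 0 for 22 of the 30 genes (73.3%, against 51.1% of all genes), and the median was −0.14, against −0.01. After a correction for GC content the members' median was −0.05, against −0.003 over all genes, and 23 of the 30 were below 0. The share of all genes below 0 in that fit is not given here.

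Averaged over both LPS levels, 6 members were lower at 10% CO2 (INSIG1, IDI1, DHCR7, HMGCS1, CYP51A1 and SQLE) and 2 were higher (PMVK and SCAP). Lower calls made up 8.69% and higher calls 8.06% of all genes in this contrast, which draws on all 12 libraries. The share of members called lower was 20.0%, and the share called higher was 6.67%. Apart from INSIG1 the lower genes are enzymes, and they range along the pathway from HMG-CoA synthesis to a last reduction. The contrasts with and without LPS share no library. Their log2 changes were both below 0 for 17 of the 30 genes, both above 0 for 7, and of opposite sign for 6. The matching shares over all genes were not computed, so nothing particular to the members is read from these counts.

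**Figure D3:**
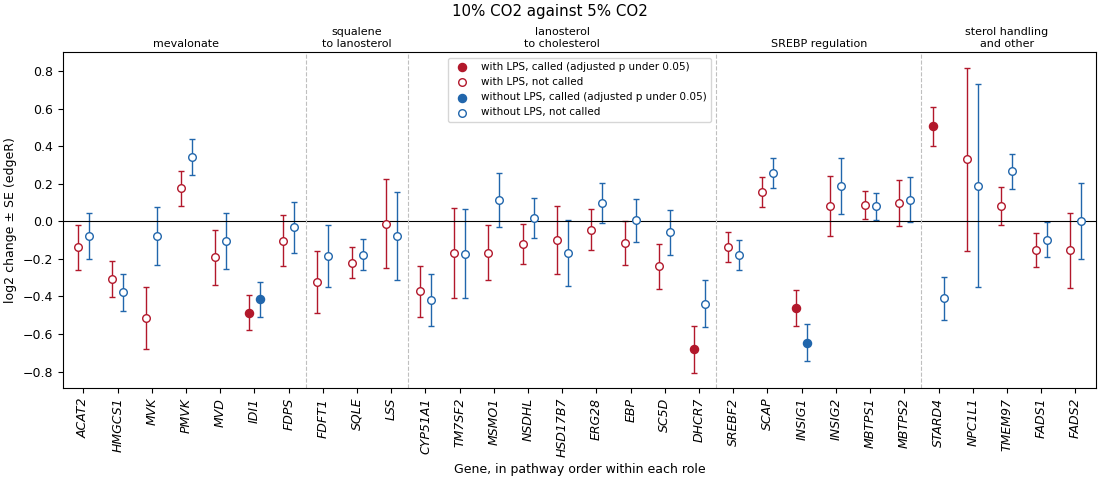
Log2 change at 10% against 5% CO2 (y axis, ± SE from edgeR) for each of the 30 genes, in pathway order within 5 roles (x axis). Red is with LPS and blue without, and filled points are called at an adjusted p under 0.05. INSIG1 and IDI1 are filled in both colours, and STARD4 lies at 0.51 with LPS and −0.41 without.

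INSIG1 (ENSG00000186480, chr7:155297776-155310235 on GRCh38) was at 46.5, 39.9 and 47.1 CPM in the libraries at 10% CO2, against 66.2, 76.6 and 66.2 CPM at 5% CO2. With LPS it was at 74.4, 66.8 and 73.8 CPM at 10% CO2, against 99.2, 107 and 90.4 CPM at 5% CO2. At each LPS level, all 3 libraries at 10% CO2 lay below all 3 at 5% CO2. The log2 change was −0.65 without LPS (SE 0.10, adjusted p = 0.0124 in edgeR) and −0.46 with LPS (SE 0.10, adjusted p = 0.00811). Averaged over LPS it was −0.55 (SE 0.07, adjusted p = 0.000138), and this call held under all 18 alternatives, leaving out each library included. Some of the separate calls rest on single libraries. Without LPS the adjusted p was 0.0691 without 5% CO2 replicate 1, 0.053 without 5% CO2 replicate 2 and 0.146 without 10% CO2 replicate 2. With LPS, leaving out replicate 2 at 10% CO2 gave an adjusted p of 0.0732, and leaving out replicate 2 at 5% CO2 gave 0.0551.

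IDI1 (ENSG00000067064, chr10:1039908-1049170) was at 48.8, 46.7 and 44.9 CPM at 10% CO2, against 57.3, 64.2 and 65.6 CPM at 5% CO2. In the presence of LPS its values were 52.4, 55.5 and 59.4 CPM at 10% CO2, against 71.4, 85.1 and 77.8 CPM at 5% CO2. The groups did not overlap at either LPS level. Its log2 change was −0.41 without LPS (SE 0.09, adjusted p = 0.034 in edgeR), −0.49 with LPS (SE 0.09, adjusted p = 0.00497) and −0.45 averaged (SE 0.07, adjusted p = 0.000358). The calls with LPS and averaged held with every library left out in turn. The call without LPS did not: its adjusted p was 0.0942, 0.0993 and 0.0886 without 5% CO2 replicate 1, 2 and 3 in turn, 0.187 without 10% CO2 replicate 2 and 0.0572 without 10% CO2 replicate 3. In the fit of the compared groups only it was 0.0899.

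HMGCS1 (ENSG00000112972, chr5:43289395-43313512), which commits acetyl units to the mevalonate pathway, was at 107, 91.0 and 105 CPM at 10% CO2, against 119, 131 and 144 CPM at 5% CO2. With LPS the values were 159.7, 145 and 167 CPM at 10% CO2, against 183, 217 and 186 CPM at 5% CO2. It was lower at 10% CO2 in every library at each LPS level, and was called in the averaged contrast, with a log2 change of −0.34 (SE 0.07, adjusted p = 0.00275 in edgeR). The separate changes were −0.38 without LPS (adjusted p = 0.0559) and −0.31 with LPS (adjusted p = 0.0513). Both passed in DESeq2 (0.0149 and 0.0332), with no filter on low counts (0.0221 and 0.0223) and with the correction for GC content (0.0234 and 0.0103), and the second also in the fit of the compared groups only (0.0364). The first passed without 10% CO2 replicate 1 (adjusted p = 0.039). The second passed without 5% CO2 replicate 3 (0.0463), without 10% CO2 replicate 1 (0.0403) and without 10% CO2 replicate 3 (0.0447).

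PMVK (ENSG00000163344, chr1:154924734-154936991), the second kinase of the mevalonate pathway, went the other way. Its level was 40.3, 46.4 and 51.7 CPM at 10% CO2, against 37.1, 36.5 and 35.5 CPM at 5% CO2. With LPS it was 41.2, 40.5 and 39.4 CPM at 10% CO2, against 35.6, 35.2 and 36.4 CPM at 5% CO2. The groups did not overlap at either LPS level, and the averaged log2 change was 0.26 (SE 0.07, adjusted p = 0.0138 in edgeR). Neither separate contrast passed (log2 change 0.34 with adjusted p = 0.0732 without LPS, and 0.17 with adjusted p = 0.268 with LPS), although the first did without 10% CO2 replicate 1 (adjusted p = 0.0196) and in DESeq2 (0.0247). With the correction for GC content both were called, at 0.36 without LPS (adjusted p = 0.0106) and 0.31 with LPS (adjusted p = 0.0151). The other 4 genes of this stretch, ACAT2, MVK, MVD and FDPS, had averaged log2 changes of −0.30 to −0.07, with adjusted p of 0.0818 or more. The lowest p was that of MVK, which passed without 10% CO2 replicate 3 (0.0435). With LPS the log2 change of MVK at 10% CO2 was −0.52 (adjusted p = 0.0591 in edgeR), and those groups did not overlap. Without LPS its groups overlapped. The change with LPS passed in 7 of 19 alternatives, among them DESeq2 (0.037), no filter on low counts (0.0338) and the compared groups only (0.0371). The correction for GC content alone was not among them.

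SQLE (ENSG00000104549), which adds the oxygen that starts ring closure, was at 116, 108 and 120.1 CPM at 10% CO2, against 123, 138 and 127 CPM at 5% CO2. With LPS the values were 145, 131 and 153 CPM at 10% CO2, against 175, 169 and 155 CPM at 5% CO2. The groups did not overlap at either LPS level, and the averaged log2 change was small, −0.20 (SE 0.06, adjusted p = 0.028 in edgeR). This call was lost with no filter on low counts (adjusted p = 0.0636) and without any 1 of 6 libraries. Its adjusted p was 0.0796 without 5% CO2 replicate 2, 0.0815 and 0.0765 without 5% CO2 with LPS replicate 1 and replicate 2, 0.0909 without 10% CO2 replicate 2, and 0.0571 and 0.12 without 10% CO2 with LPS replicate 1 and replicate 2. FDFT1 and LSS, the enzymes before and after SQLE, had averaged log2 changes of −0.25 and −0.05 (adjusted p = 0.154 and 0.889). FDFT1 was called there with no filter on low counts (0.00952) and without 5% CO2 with LPS replicate 1 (0.0446).

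DHCR7 (ENSG00000172893, chr11:71428193-71452868) was at 37.8, 32.3 and 47.1 CPM at 10% CO2 with LPS, against 62.2, 66.0 and 60.2 CPM at 5% CO2 with LPS. Without LPS it was at 46.3, 46.0 and 57.7 CPM at 10% CO2, against 61.1, 73.9 and 68.3 CPM at 5% CO2. All libraries at 10% CO2 lay below those at 5% CO2 at each LPS level, and replicate 3 was the highest of the 3 at 10% CO2 in both. The log2 change was −0.68 with LPS (SE 0.13, adjusted p = 0.00416 in edgeR) and −0.56 averaged (SE 0.09, adjusted p = 0.000565). Both calls held with every library left out in turn. Without LPS it was −0.44 and was not called (adjusted p = 0.0774), but passed without 10% CO2 replicate 3 (adjusted p = 0.0373), in DESeq2 (0.0289), with no filter on low counts (0.0119) and with the correction for GC content (0.034).

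CYP51A1 (ENSG00000001630, chr7:92112151-92142952), the demethylase that opens the stretch from lanosterol to cholesterol, was at 7.47, 6.69 and 7.02 CPM at 10% CO2, against 9.40, 9.54 and 9.42 CPM at 5% CO2. With LPS it was at 6.92, 7.11 and 8.59 CPM at 10% CO2, against 11.1, 8.89 and 9.40 CPM at 5% CO2. The groups did not overlap at either LPS level. The averaged log2 change was −0.40 (SE 0.10, adjusted p = 0.00999 in edgeR), while the separate changes, −0.42 and −0.37, were not called (adjusted p = 0.119 without and 0.0948 with LPS). The change with LPS was called with the correction for GC content (adjusted p = 0.0396). The other 7 genes between lanosterol and cholesterol (TM7SF2, MSMO1, NSDHL, HSD17B7, ERG28, EBP and SC5D) had averaged log2 changes of −0.17 to 0.03, with adjusted p of 0.241 to 0.891.

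**Figure D4:**
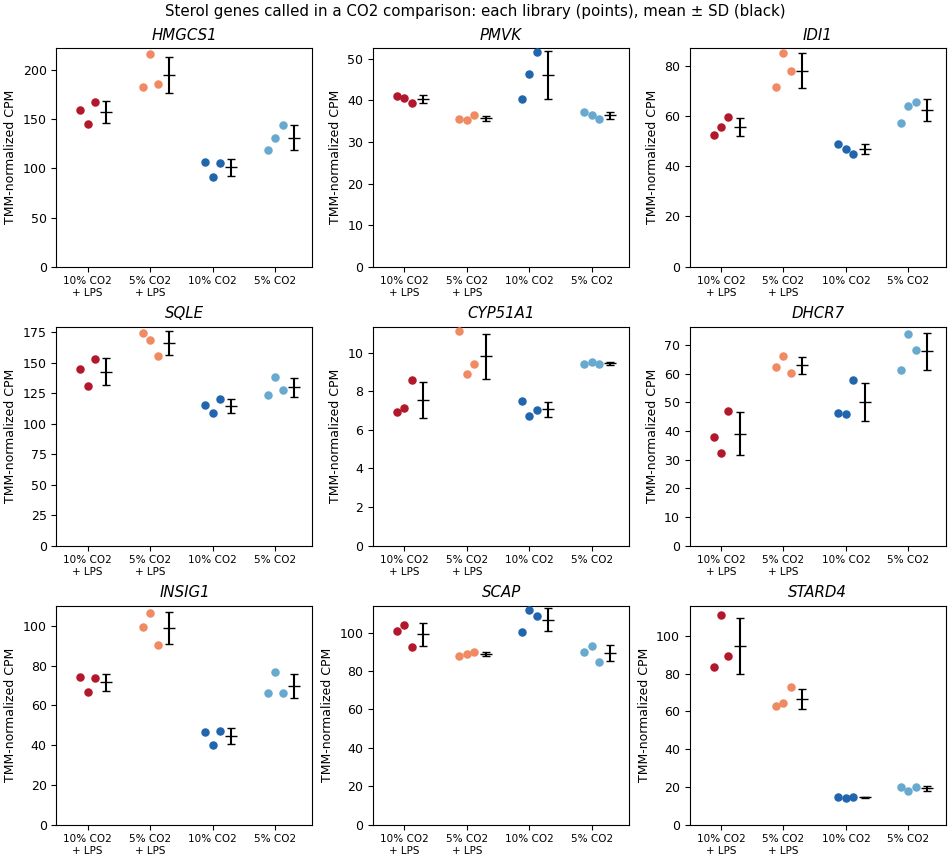
TMM-normalized CPM (y axis, from 0) of the 9 genes called in at least 1 CO2 comparison, in the 4 groups (x axis). Coloured points are libraries and black bars are the mean ± SD of 3. In the STARD4 panel the 10% CO2 libraries lie above the 5% CO2 libraries with LPS and below them without. In the other panels they lie on the same side at both LPS levels. Choice of the genes by a CO2 call favours this, and the share over all genes was not computed.

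Of the genes that control the pathway, only INSIG1 and SCAP were called in a CO2 comparison. SCAP (ENSG00000114650, chr3:47413694-47477126) was at 100.4, 112 and 109 CPM at 10% CO2, against 90.1, 93.2 and 84.9 CPM at 5% CO2, and with LPS at 101, 104 and 92.6 CPM at 10% CO2, against 88.0, 89.0 and 90.2 CPM at 5% CO2. All libraries at 10% CO2 lay above those at 5% CO2 at each LPS level. The averaged log2 change of SCAP was 0.21 (SE 0.06, adjusted p = 0.0179 in edgeR), and it was lost without 10% CO2 replicate 2 (adjusted p = 0.0592) and, at an adjusted p of 0.05002, with no filter on low counts. The separate changes, 0.26 without LPS and 0.15 with LPS, were not called (adjusted p = 0.103 and 0.239). The first passed in DESeq2 (adjusted p = 0.043), and with the correction for GC content both were called, at 0.29 without LPS (adjusted p = 0.0266) and 0.29 with LPS (adjusted p = 0.0168).

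SREBF2 (ENSG00000198911, chr22:41833079-41907308), the gene of SREBP2, was at 418, 394 and 466 CPM at 10% CO2, against 467, 508 and 473 CPM at 5% CO2. With LPS it was at 495, 496 and 548 CPM at 10% CO2, against 547, 584 and 562 CPM at 5% CO2. The groups did not overlap without LPS and overlapped with it, where the highest library at 10% CO2 exceeded the lowest at 5% CO2. Its averaged log2 change was −0.16 with a 95% interval of −0.27 to −0.04, and it missed the threshold over all genes (adjusted p = 0.0567 in edgeR), although it passed without 10% CO2 replicate 3 (adjusted p = 0.0167) and in DESeq2 (0.0461). After the correction for GC content it was −0.09 (adjusted p = 0.165).

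INSIG2, the second anchor protein of SCAP, was at 11.1, 11.8 and 8.87 CPM at 10% CO2, against 9.53, 7.88 and 10.4 CPM at 5% CO2. With LPS it was at 6.50, 6.46 and 7.06 CPM at 10% CO2, against 6.13, 5.53 and 7.28 CPM at 5% CO2. The groups overlapped at both LPS levels, and the averaged log2 change was 0.13, with a 95% interval of −0.10 to 0.36. MBTPS1 was at 110.0, 109 and 107 CPM at 10% CO2, against 106, 103 and 99.4 CPM at 5% CO2, and with LPS at 119, 122 and 119.8 CPM at 10% CO2, against 112, 119 and 109 CPM at 5% CO2. Its libraries at 10% CO2 were the higher ones throughout, by an averaged log2 change of 0.08 that was not called (95% interval −0.03 to 0.19). MBTPS2 was at 32.0, 27.6 and 22.9 CPM at 10% CO2, against 26.8, 21.7 and 27.5 CPM at 5% CO2, and with LPS at 30.5, 27.2 and 27.9 CPM at 10% CO2, against 25.4, 28.4 and 26.3 CPM at 5% CO2. These groups overlapped, and its averaged log2 change was 0.11 (95% interval −0.08 to 0.29).

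STARD4 (ENSG00000164211, chr5:111496033-111512590), a soluble carrier that moves cholesterol between membranes and is known as an SREBP2 target, was the 1 member whose response to LPS differed between the CO2 levels in the interaction test. It was at 83.4, 111 and 89.4 CPM at 10% CO2 with LPS, against 63.0, 64.2 and 72.7 CPM at 5% CO2 with LPS. Without LPS it was at 14.3, 14.1 and 14.7 CPM at 10% CO2, against 19.7, 17.9 and 19.8 CPM at 5% CO2. The 3 libraries at 10% CO2 were thus the higher ones with LPS and the lower ones without, and neither pair of groups overlapped. The CO2 difference was 0.51 on the log2 scale with LPS (SE 0.10, adjusted p = 0.0074 in edgeR) and −0.41 without (SE 0.11, adjusted p = 0.0754). The second passed in DESeq2 (0.0339) and with the correction for GC content (0.0383), under which the first was 0.33 (adjusted p = 0.0461).

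LPS raised STARD4 6.58-fold at 10% CO2 (log2 change 2.72, SE 0.11, adjusted p = 5.16e-13 in edgeR) and 3.49-fold at 5% CO2 (log2 change 1.80, SE 0.11, adjusted p = 2.35e-10). The interaction (log2 LPS effect at 10% CO2 less the one at 5% CO2) was 0.92 (SE 0.15, adjusted p = 0.046). Over all genes 0.0244% passed this test, 4 genes in either direction, and STARD4 was 1 of them. The interaction stands close to the threshold and was lost without any 1 of 9 libraries, while its size was between 0.78 and 0.96 in those fits. Its adjusted p was 0.134, 0.0552 and 0.158 without 5% CO2 replicate 1, 2 and 3 in turn, 0.225 and 0.183 without 5% CO2 with LPS replicate 1 and replicate 2, 0.238 and 0.126 without 10% CO2 replicate 2 and replicate 3, and 0.138 and 0.0999 without 10% CO2 with LPS replicate 2 and replicate 3. With the correction for GC content the interaction was 0.76 (adjusted p = 0.13), and with DESeq2's size factors 0.92 (adjusted p = 0.0507). The CO2 difference with LPS rested on 1 library, 10% CO2 with LPS replicate 2, the highest of the 12, without which it was 0.39 (adjusted p = 0.064).

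LPS raised STARD4, INSIG1, HMGCS1, SQLE, IDI1 and SREBF2 at both CO2 levels, and lowered INSIG2 and TMEM97 at both. At 10% CO2, MVK and DHCR7 were also lower. At 10% CO2, 6 of the 30 genes were called higher (20.0%, against 16.6% of all genes) and 4 lower (13.3%, against 18.6%). At 5% CO2, 6 were called higher (20.0%, against 11.8%) and 2 lower (6.67%, against 13.1%). The shares at 10% CO2 lie near those of all genes. The median log2 change over the members was 0.05 at 10% CO2 and 0.06 at 5% CO2, against −0.02 and −0.01 over all genes. The LPS contrast at each CO2 level shares libraries with the CO2 contrasts, so its values are set beside those above and not correlated with them.

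**Figure D5:**
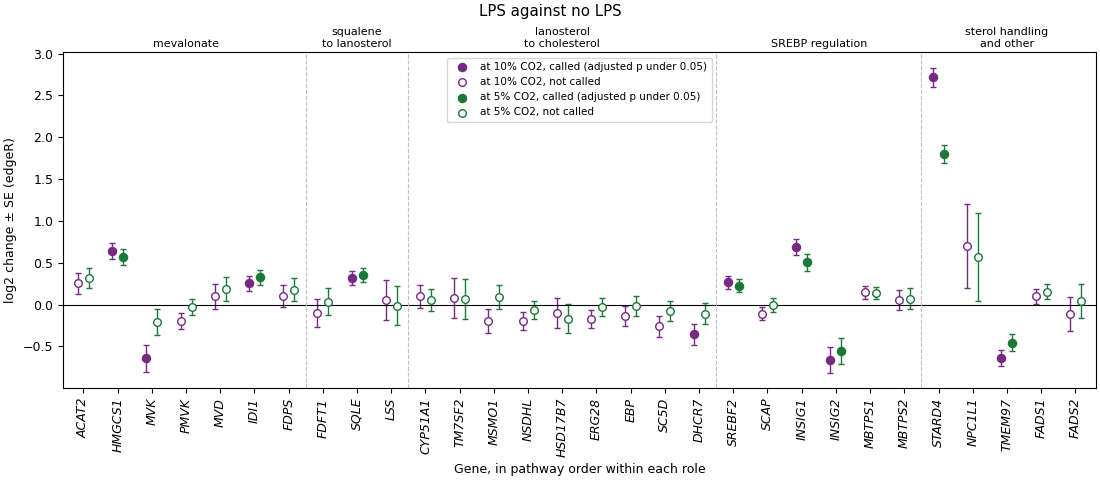
Log2 change with LPS against no LPS (y axis, ± SE from edgeR) for the 30 genes in pathway order within 5 roles (x axis). Purple is at 10% CO2 and green at 5% CO2, and filled points are called at an adjusted p under 0.05. STARD4 stands above the rest at 2.72 and 1.80, and INSIG2 and TMEM97 are filled below 0 at both CO2 levels.

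In the mevalonate stretch, HMGCS1 averaged 157 ± 11.1 CPM at 10% CO2 with LPS and 101 ± 8.70 CPM at 10% CO2 (SD, n = 3 each), and 195 ± 18.6 CPM at 5% CO2 with LPS and 131 ± 12.7 CPM at 5% CO2. Its log2 change was 0.64 at 10% CO2 (SE 0.10, adjusted p = 3.69e-05 in edgeR) and 0.57 at 5% CO2 (SE 0.10, adjusted p = 0.00018). IDI1 changed by 0.25 at 10% CO2 (adjusted p = 0.0405) and by 0.33 at 5% CO2 (adjusted p = 0.0134). The first of these calls of IDI1 was lost without 10% CO2 replicate 2 (0.0951) or 3 (0.108) and without 10% CO2 with LPS replicate 2 (0.0741) or 3 (0.16). The second was lost without 5% CO2 replicate 1 (0.08) and without 5% CO2 with LPS replicate 2 (0.0657). With the correction for GC content the change of IDI1 at 10% CO2 was 0.15 (adjusted p = 0.157), and its call was also lost with no filter (0.18) and with the compared groups only (0.0507).

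MVK (ENSG00000110921, chr12:109573255-109598117), which phosphorylates mevalonate, was low and fell with LPS at 10% CO2. It was at 6.56, 5.68 and 6.87 CPM at 10% CO2 with LPS, against 7.74, 10.7 and 11.5 CPM at 10% CO2, with no overlap. At 5% CO2 it was at 8.88, 9.56 and 8.95 CPM with LPS, against 8.68, 11.3 and 11.7 CPM without, and these groups overlapped. The log2 change was −0.64 at 10% CO2 (SE 0.16, adjusted p = 0.00466 in edgeR) and −0.21 at 5% CO2 (adjusted p = 0.388). The difference between these, tested as the interaction, was −0.44 (95% interval −0.92 to 0.04, adjusted p = 0.856), so a difference between CO2 levels was not shown. ACAT2, the thiolase of the first step, had a log2 change of 0.25 at 10% CO2 and 0.32 at 5% CO2 (adjusted p = 0.12 and 0.0681). The change at 5% CO2 passed with no filter on low counts (0.019) and with the compared groups only (0.034), and both passed without replicate 1 of the LPS group concerned (0.043 and 0.0362). The change at 5% CO2 also passed without 10% CO2 with LPS replicate 1 (0.0486) or 3 (0.0476). A replicate block was also fitted, with an effect per replicate number shared by all 4 groups, so it does not pair the 10% CO2 libraries alone. Under it the log2 change of ACAT2 with LPS at 10% CO2 was 0.24 (adjusted p = 0.0248 in edgeR). A gene on the opposite strand that overlaps ACAT2 averaged 9728 CPM at 10% CO2 with LPS and 74.5 CPM at 10% CO2, and the part of its reads in this value of ACAT2 was not tested.

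SQLE averaged 143 ± 11.2 CPM at 10% CO2 with LPS and 115 ± 5.91 CPM at 10% CO2, and 166 ± 9.81 CPM at 5% CO2 with LPS and 129.7 ± 7.78 CPM at 5% CO2 (SD, n = 3 each). Its log2 change was 0.32 at 10% CO2 (adjusted p = 0.00631 in edgeR) and 0.36 at 5% CO2 (adjusted p = 0.00348). With the correction for GC content the first was 0.19 and no longer called (adjusted p = 0.106). DHCR7 fell with LPS at 10% CO2 by 1.28-fold (log2 change −0.35, SE 0.13, adjusted p = 0.0349), though its groups overlapped there. After the correction for GC content it was −0.23 (adjusted p = 0.103), and with the compared groups only the call was also lost (0.0663). Without 10% CO2 replicate 3 its adjusted p was 0.181, and without 10% CO2 with LPS replicate 1 or 2 it was 0.104 or 0.216. At 5% CO2 the log2 change of DHCR7 was −0.11 (adjusted p = 0.579), and the interaction was −0.24 (95% interval −0.61 to 0.12, adjusted p = 0.926). SC5D, the desaturase just before DHCR7, had a log2 change of −0.26 with LPS at 10% CO2 (adjusted p = 0.0992). It was called with the replicate block, at −0.26 (adjusted p = 0.0358), after the correction for GC content, at −0.45 (adjusted p = 0.00159), and without 10% CO2 replicate 3 (0.042). For LPS against no LPS at 10% CO2, the fit with the replicate block called 7 members higher and 5 lower. The shares of all genes called in that fit are not given here, so these counts are not compared with a background.

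Among the regulators, INSIG1 and INSIG2 moved in opposite directions with LPS. INSIG1 averaged 71.6 ± 4.22 CPM at 10% CO2 with LPS and 44.5 ± 4.00 CPM at 10% CO2, and 98.7 ± 8.09 CPM at 5% CO2 with LPS and 69.7 ± 6.02 CPM at 5% CO2 (SD, n = 3 each). The log2 change of INSIG1 was 0.69 at 10% CO2 (SE 0.10, adjusted p = 1.81e-05 in edgeR) and 0.50 at 5% CO2 (SE 0.10, adjusted p = 0.00061). That of INSIG2 was −0.66 at 10% CO2 (adjusted p = 0.00249) and −0.56 at 5% CO2 (adjusted p = 0.0127). The level of INSIG1 at 10% CO2 with LPS (71.6 ± 4.22 CPM) differed by less than the SDs from that at 5% CO2 without it (69.7 ± 6.02 CPM). The INSIG2 call at 5% CO2 was lost without 5% CO2 replicate 3 (0.0652) and without 5% CO2 with LPS replicate 2 (0.0702).

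SREBF2 changed with LPS by 0.27 at 10% CO2 (adjusted p = 0.0117 in edgeR) and by 0.23 at 5% CO2 (adjusted p = 0.0406). These are small changes of an abundant transcript, and the groups did not overlap at either CO2 level. The call at 5% CO2 was lost with no filter on low counts (0.0739), without 5% CO2 replicate 1 (0.135) or 3 (0.111) and without 5% CO2 with LPS replicate 1 (0.0599), 2 (0.103) or 3 (0.091). The call at 10% CO2 was lost without 10% CO2 replicate 2 (0.078) and without 10% CO2 with LPS replicate 3 (0.07). SCAP, MBTPS1 and MBTPS2 were not called with LPS at either CO2 level.

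TMEM97 (ENSG00000109084, chr17:28319095-28328685), a membrane protein of the endoplasmic reticulum and lysosome that binds the sterol transporter NPC1, was at 22.9, 23.0 and 24.9 CPM at 10% CO2 with LPS, against 34.6, 39.7 and 35.9 CPM at 10% CO2. At 5% CO2 it was at 21.2, 22.9 and 22.8 CPM with LPS, against 28.0, 32.1 and 31.7 CPM without. The groups did not overlap at either CO2 level. Its log2 change was −0.64 at 10% CO2 (SE 0.10, adjusted p = 3.91e-05 in edgeR) and −0.45 at 5% CO2 (SE 0.10, adjusted p = 0.0017), and both calls held with every library left out in turn. The desaturases FADS1 and FADS2, which act on fatty acids and not on sterols, and NPC1L1 were not called in any comparison.

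Genes of neighbouring pathways were counted from lists of the same kind, each over its members that passed the filter. In the list of sterol efflux, esterification and LXR-linked genes, 0 of 19 were higher (2 at an unadjusted p under 0.05, and 1 in DESeq2) and 2 lower at 10% CO2 averaged over LPS: NR1H2, an LXR receptor gene (log2 change −0.27 ± 0.08 SE, adjusted p = 0.0215 in edgeR), and GRAMD1B, a sterol transfer protein (−0.29 ± 0.09 SE, adjusted p = 0.0361). The shares over all genes in this contrast are 8.06% higher and 8.69% lower, and nothing particular to a list is read from these small counts. Of 16 genes linked to SREBP1 and fatty acid synthesis, 3 were higher and 3 lower. SREBF1, the gene of SREBP1, was among the lower ones at −0.49 ± 0.10 SE (adjusted p = 0.00451), and GPAM, a first enzyme of triglyceride synthesis, among the higher ones at 0.38 ± 0.10 SE (adjusted p = 0.0117). Of 16 genes that use isoprenoids, 3 were higher and 1 lower, with PDSS1, which makes the ubiquinone side chain, at 0.40 ± 0.07 SE (adjusted p = 0.00169) and RABGGTA, a subunit of a geranylgeranyl transferase, at −0.37 ± 0.07 SE (adjusted p = 0.00311). Of 15 genes of sterol-linked protein degradation and of SCAP transport, 0 were higher (1 at an unadjusted p under 0.05, and 0 in DESeq2) and 4 lower, among them NPLOC4, a cofactor of VCP (−0.29 ± 0.06 SE, adjusted p = 0.00451), and SEC24D, a coat protein of vesicles that leave the endoplasmic reticulum (−0.25 ± 0.06 SE, adjusted p = 0.0123).

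At 10% CO2 without LPS, edgeR called 0 genes of these 4 lists. At an unadjusted p under 0.05 the counts higher and lower were 2 and 1 in the efflux list, 3 and 1 in the SREBP1 list, 4 and 2 in the isoprenoid list and 0 and 4 in the degradation list, of which DESeq2 called 2 in the degradation list, both lower. With LPS, where 4.29% of all genes were higher and 4.46% lower, 1 efflux-list gene was higher (GRAMD1A, 0.56 ± 0.15 SE, adjusted p = 0.0293 in edgeR) and 1 lower (GRAMD1B). Of the SREBP1 list 2 were higher and 1 was lower, SREBF1 at −0.62 ± 0.14 SE (adjusted p = 0.0155). Of the isoprenoid list 2 were higher and 1 lower, and of the degradation list 0 were higher and 2 lower (0 higher at an unadjusted p under 0.05 and in DESeq2). For LPS against no LPS at 10% CO2, where 16.6% of all genes were higher and 18.6% lower, the counts higher and lower were 2 and 6 of 19 efflux genes, 3 and 4 of 16 SREBP1 genes, 3 and 3 of 16 isoprenoid genes, and 3 and 1 of 15 degradation genes. At 5% CO2, where 11.8% of all genes were higher and 13.1% lower, they were 2 and 4, 2 and 3, 1 and 1, and 1 and 1 in the same lists. GRAMD1A rose by 2.71 ± 0.16 SE at 10% CO2 and by 2.22 ± 0.16 SE at 5% CO2. RNF145, a ubiquitin ligase known to act on SCAP, rose by 1.35 ± 0.10 SE and by 1.19 ± 0.10 SE at these CO2 levels, and MYLIP, a ubiquitin ligase of lipoprotein receptors, changed by −0.86 ± 0.11 SE and by −0.90 ± 0.11 SE.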

How the data were processed

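Raw counts per Ensembl gene, 1 deposited table per library in the layout of featureCounts, were the authors' only values used, and all 12 tables were used. Per the submitters' processing notes, the tools were Trimmomatic 0.36, STAR 2.5.2b and featureCounts (Subread 1.5.2), with GRCh38. Strand setting, annotation release and handling of multi-mapping reads were not given in the sources used here. Groups and replicate numbers came from the sample titles. Nothing in the labels says that replicates were separate cultures, so every p-value reflects only the spread among these libraries, which may be technical. No pair of replicates agreed within sampling noise (chi-square divided by its degrees of freedom, 8.05 to 26.2), so each library counts as 1 sample. Per-sample columns left out numbered 0.

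Tests were run in edgeR 4.0.16 under R 4.3.3 (filterByExpr on the groups, TMM normalization, robust quasi-likelihood F test, 1 model of 4 group means over 12 libraries, Benjamini-Hochberg adjustment over 16402 genes). The averaged contrast is the mean of the 2 CO2 contrasts. The common biological coefficient of variation was 10.7%. CPM values are TMM-normalized, and TPM values were computed from the counts and the deposited gene lengths, with SD over 3 libraries. Intervals (95%) of log2 changes use the SE and the t quantile of the fit. Count floors cover counting error only. Symbols were paired with 40907 of 57500 identifiers (71.1%), which held 99.1% of counts. The test was also tried on simulated counts with known changes, drawn with means and spread taken from the fit to these data. Alternatives were DESeq2 1.42.0, RLE size factors, no filter, fits of the compared groups only, a replicate block, a correction for GC content (values for 16394 genes), both together, and leaving out each library.

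Same-numbered libraries deviated together in the LPS contrast at 10% CO2 (correlations of deviations 0.251, 0.192 and 0.106, each above 0.1), a pairing seen in the data and not stated in the labels. In the other contrasts at least 1 number fell below 0.1. The members and the related lists were chosen with earlier results of these data known. The result of 1 list of cell type markers is not reported here. Values in every library are given for members called in a CO2 contrast and for the 6 regulators; other members called with LPS are given by fold change, and at most 3 genes per related list and contrast are named. Per-library values of MVK and TMEM97 are given beyond that rule and were chosen after their values were seen.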

Additional observations from a re-analysis of the deposited data

Results flagged for a closer look

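STARD4 is the 1 member whose LPS effect differed between CO2 levels by a test of the difference itself. The LPS effect at 10% CO2 exceeded that at 5% CO2 by 0.92 on the log2 scale (SE 0.15, adjusted p = 0.046 in edgeR's quasi-likelihood test over 16402 genes). The same gene had CO2 differences of opposite sign, with every library on the stated side: 0.51 with LPS (adjusted p = 0.0074) and −0.41 without (adjusted p = 0.0754). These 2 values describe 1 pattern, since the difference between them is the interaction. Replicate 2 of the 10% CO2 with LPS group had both the highest STARD4 level and the highest mitochondrial share of its group, 4.15%, and without it the interaction was 0.78 (adjusted p = 0.138). The part of that share in the result was not tested.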

How the results depend on the processing

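The alternatives were tallied over 70 pairs of a member and a contrast, not all of which have a printed fold change. Genes of the related lists are not among these pairs. Of 1311 comparisons with an alternative, 1163 kept the direction and the side of the threshold. A call was lost in 60 and gained in 75, and 13 reversed. The averaged CO2 calls of INSIG1, IDI1, DHCR7, HMGCS1, CYP51A1 and PMVK held under all 18 alternatives. All 13 reversals were of uncalled values near 0: MBTPS2 in CO2 without LPS was −0.0064 without 10% CO2 replicate 1, INSIG2 in CO2 with LPS was −0.0599 with the GC correction and −0.0596 with the replicate block and GC correction together, MBTPS2 in CO2 with LPS was −0.0303 and −0.0318 in the same 2 fits, and STARD4 in the averaged contrast was −0.0501 and −0.0544 there and −0.0043 without 10% CO2 with LPS replicate 2. LSS in the averaged contrast was 0.0117 with the GC correction and above 0 without any 1 of 4 libraries. With 1 library left out, MBTPS2 in CO2 without LPS ranged from −0.0064 to 0.234, and in the averaged contrast STARD4 ranged from −0.0043 to 0.0995 and LSS from −0.201 to 0.0482.

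Counts of members called moved as follows, and the cause was not tested. The share of all genes called in each of these fits is not given, so the counts are not compared with a background. In CO2 without LPS, higher calls numbered 0, and 2 in DESeq2, 1 with the replicate block, 2 with the GC correction and 3 with both. Lower calls numbered 2, and 5 in DESeq2, 4 with no filter, 1 in the fit of the compared groups only, 5 with the block, 5 with the GC correction and 6 with both. In CO2 with LPS, higher calls numbered 1, and 3 with the GC correction, with or without the block. Lower calls numbered 3, and 5 in DESeq2, 6 with no filter, 5 with the compared groups only, 6 with the block, 7 with the GC correction and 9 with both. Averaged over LPS, higher calls numbered 2, and 1 with no filter. With LPS at 10% CO2, lower calls numbered 4, and 7 with the block and GC correction. The interaction called 1 member, and 0 with RLE size factors and with the GC correction. Searched on the given strand alone, CCAAT was found in 11 member genes in place of 20.

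With 1 library left out, members called higher and lower ranged over 0 to 1 and 0 to 3 in CO2 without LPS, 0 to 1 and 2 to 5 with LPS, 1 to 2 and 5 to 9 averaged, 4 to 7 and 1 to 2 with LPS at 5% CO2, 4 to 7 and 3 to 5 with LPS at 10% CO2, and 0 to 1 and 0 to 0 for the interaction. Over all genes, CO2 without LPS called 240, and 0 to 511 with 1 library left out and 71 to 2047 under the other alternatives. CO2 with LPS called 1435 (271 to 1804; 1449 to 3006), averaged 2748 (1664 to 3005; 2646 to 4691), LPS at 5% CO2 4092 (3116 to 4371; 3893 to 5855), LPS at 10% CO2 5773 (4652 to 5923; 5390 to 7235) and the interaction 4 (1 to 37; 1 to 108).

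In 3 of the 4 contrasts at least 1 replicate number had a correlation below 0.1, so the block was not taken as a pairing there. The correlations for replicates 1, 2 and 3 were 0.259, 0.0946 and −0.136 (CO2 without LPS), 0.122, −0.132 and −0.0294 (CO2 with LPS) and 0.192, 0.0249 and 0.115 (LPS at 5% CO2). For replicate 1 the correlation was above 0.1 in every contrast. A library matched its own number best in 21 of 36 comparisons, with 3 candidates in each. The block alone added calls of PMVK, HMGCS1, STARD4 and DHCR7 in CO2 without LPS, of HMGCS1, FDFT1 (adjusted p = 0.0402 in edgeR) and MVK (0.0293) with LPS, of FDFT1 (0.0148), MVK (0.0426) and SREBF2 (0.0341) averaged, and of ACAT2 in LPS at 5% CO2 (log2 change 0.31, adjusted p = 0.00747). In LPS at 10% CO2 the block changed no other member's call than those of ACAT2 and SC5D. At these depths the counts of NPC1L1 and of the lowest enzymes limit the precision of their fold changes.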

Other observations

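Replicate 1 was the lowest of the 3 libraries in all 4 groups for 7 of the 30 members (23.3%): ACAT2, FDPS, LSS, TM7SF2, EBP, TMEM97 and FADS2. Over all 16402 genes tested, this held for 975 (5.94%). Replicate 2 was lowest in all 4 groups for 0 members and replicate 3 for 1, NPC1L1. The 7 genes have exon GC contents of 46.6 to 62.7%, and the median was 49.9% over the members and 48.7% over all genes tested. Each group holds 1 library of each number, and this ordering enters the spread between replicates in the fits without a replicate block.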
